A study of Mus musculus with 4 samples.

Results

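The cytosolic ribosome is built from a small 40S and a large 60S subunit, whose RNAs are held together by ribosomal proteins. In mammals these proteins are encoded by single, short genes scattered over nearly all chromosomes, and all subunits are needed in matched amounts in every growing cell. Their promoters are known for a pyrimidine-rich tract at the transcription start, which also opens the mRNA and places its translation under growth control, and many of their introns carry small nucleolar RNAs (snoRNAs), which guide the chemical modification of ribosomal RNA. Mutations in several of them cause Diamond-Blackfan anaemia, in which some patients also have heart septal defects.

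Of 21887 protein-coding genes in the RefSeq annotation of mouse assembly GRCm38.p6, 84 were taken as cytosolic ribosomal protein genes. These had symbols that start with Rpl or Rps and a digit, or were Rplp0, Rplp1, Rplp2 or Rpsa. The pattern matched 101 genes. The 10 Rps6k kinases, Rps19bp1, 2 genes with a -ps suffix and 4 X-linked genes were left out. The 84 comprised 43 genes of the 60S subunit, 30 of the 40S subunit, 8 paralogues with symbols ending in l or l1, and 3 retrogene-type symbols (Rpl37rt, Rps27rt and Rps23rg1). They lay on 18 chromosomes and had a median length of 3206.5 bp against 17169 bp for all protein-coding genes.

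ATAC-seq cuts DNA with a transposase where chromatin is open, so read pile-ups (peaks) mark accessible sites. It was carried out on hearts of newborn (P0) mice, with 2 libraries of wild-type (WT) animals and 2 of animals overexpressing miR-187, and 1 peak list was analysed per library. Per the methods of the study, the miR-187 mice carry a knock-in of exogenous mmu-miR-187 at the Rosa26 locus under the Tek (Tie2) promoter, which is active in endothelial cells, on a C57BL/6J background, and the cells were labelled with CD31 magnetic beads, whereas the labels name heart tissue alone. The study gives +/+ and KI/KI (homozygous) genotypes for its mouse ATAC data, while the labels state no zygosity and do not say whether the libraries came from separate animals, so the spread between libraries may be technical. The aim of the comparison was to learn how raised miR-187 affects chromatin accessibility.

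The lists differed widely in size and depth, also within a group. WT replicates 1 and 2 held 9452 and 12298 peaks on chromosomes 1 to 19, X and Y, and miR-187 replicates 1 and 2 held 7496 and 1483. The background read density inferred from the peak values was 1751 and 5227 reads per Mb in WT and 2016 and 1032 reads per Mb in miR-187. WT replicate 2 was thus the deepest and miR-187 replicate 2 the shallowest and shortest list, and every count below is given per library for that reason, with WT ahead of miR-187 and replicate 1 ahead of replicate 2. Of 18 endothelial marker genes, 3 and 5 had a peak at a gene boundary in WT and 2 and 1 in miR-187 (7 in any list, but not Pecam1, which encodes CD31). As shares these were 16.7%, 27.8%, 11.1% and 5.56%, close to or below those of all protein-coding genes given below except in miR-187 replicate 2. Against all genes, the markers thus did not set endothelial cells apart in these lists. Of 18 cardiomyocyte markers, 3, 1, 1 and 0 had one, and of 8 fibroblast markers 2, 4, 1 and 0. None of the 4 smooth muscle, 6 erythroid and 6 immune markers had a peak in any list.

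Promoter stretches of 6 ribosomal protein genes are shown because their peaks recurred in the lists with the strongest summit within 1 kb of the annotated start. The summits themselves lie inside the printed stretch in part, for Rpl34, Rpl27 and Rps18 in 2 of 3 lists and for Rps21 in 1 of 3, and outside it for Rpl15 and Rpl31. Rpl15 was the sole gene with a peak in all 4 lists. The other 5 had peaks in 3 lists and were chosen after their values were seen. Each stretch runs from 100 bases before to 15 bases after the start, 5′ to 3′ on the strand of the gene (RefSeq, GRCm38.p6). Capitals mark GGGCGG (Sp1 family), CCGGAA (Ets family), ATGGCGG (YY1 family) and TATAAA on either strand, and CTTTC or CTTTT or CTTCC (the terminal pyrimidine tract) on the gene strand within 10 bases of the start. Neighbouring or overlapping matches merge into 1 run of capitals.
Rpl15: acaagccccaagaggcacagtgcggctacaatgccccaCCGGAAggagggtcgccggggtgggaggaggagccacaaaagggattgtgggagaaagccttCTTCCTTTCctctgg
Rpl31: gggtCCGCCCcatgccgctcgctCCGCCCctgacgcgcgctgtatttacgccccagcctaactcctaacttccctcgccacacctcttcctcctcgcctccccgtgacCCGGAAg
Rpl27: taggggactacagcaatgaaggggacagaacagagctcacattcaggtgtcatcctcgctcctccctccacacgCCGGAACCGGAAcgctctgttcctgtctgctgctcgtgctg
Rpl34: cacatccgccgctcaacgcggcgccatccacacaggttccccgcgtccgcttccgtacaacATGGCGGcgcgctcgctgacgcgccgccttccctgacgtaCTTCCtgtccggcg
Rps18: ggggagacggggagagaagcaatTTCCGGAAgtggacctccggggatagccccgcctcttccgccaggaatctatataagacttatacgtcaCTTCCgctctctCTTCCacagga
Rps21: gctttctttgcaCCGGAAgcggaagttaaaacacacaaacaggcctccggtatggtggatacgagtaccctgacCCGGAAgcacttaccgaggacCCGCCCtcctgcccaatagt
The stretches lie at chr14:18270972-18271086 on the minus strand (Rpl15), chr1:39367751-39367865 on the plus strand (Rpl31), chr11:101442145-101442259 on the plus strand (Rpl27), chr3:130730384-130730498 on the minus strand (Rpl34), chr17:33955651-33955765 on the minus strand (Rps18) and chr2:180257279-180257393 on the plus strand (Rps21). Rpl15, Rpl34 and Rps18 hold the pyrimidine tract in this window, Rpl15, Rpl31, Rpl27, Rps18 and Rps21 hold the Ets letters, Rpl31 and Rps21 hold the Sp1 letters, and Rpl34 holds the YY1 letters.

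Ribosomal protein genes had a peak at a gene boundary more often than protein-coding genes at large in 3 of the 4 libraries. A gene was counted when the summit of a peak lay within 1 kb of either boundary of the gene. In WT replicate 1, 37 of the 84 genes had such a peak, or 44.0% (95% Wilson interval 33.9 to 54.7%), against 21% of all protein-coding genes. In WT replicate 2 there were 52, or 61.9% (51.2 to 71.6%), against 29.9%. In miR-187 replicate 1 there were 29, or 34.5% (25.2 to 45.2%), against 19.4%. The share of ribosomal protein genes was 2.10 and 2.07 times that of all genes in the WT libraries and 1.78 times in miR-187 replicate 1. In miR-187 replicate 2 the order was the opposite, with 2 of 84 genes, or 2.38% (0.655 to 8.27%), against 3.07% of all genes, and the interval covers the share of all genes. The Wilson intervals cover counting error over genes and not the spread between libraries.

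The gap to all genes averaged 17.4 ± 13.9 percentage points (SD, n = 4 libraries). This SD takes both groups together, with gaps of 27.5 ± 6.33 points in WT and 7.20 ± 11.2 points in miR-187 (SD, n = 2 each). The mean gap over the 4 libraries was 9.55 points when weaker peaks (−log10 q below 5) were dropped. It was 3.82 points when every list was cut to the 1483 strongest peaks. With the weaker peaks dropped, the shares of ribosomal protein genes were 16.7% and 36.9% in WT and 14.3% and 1.19% in miR-187. All genes then had 5.99%, 17.4%, 7.15% and 0.256%. The order in miR-187 replicate 2 was thus turned, on 1 gene. Protein-coding genes under 10 kb, the length class of most ribosomal protein genes, had boundary peaks less often than all genes (14.0% and 20.4% in WT, 13.1% and 1.78% in miR-187). Of the ribosomal protein genes, 82 were under 10 kb, and 45.1% and 62.2% of these had a peak in WT and 35.4% and 2.44% in miR-187.

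**Figure D1:**
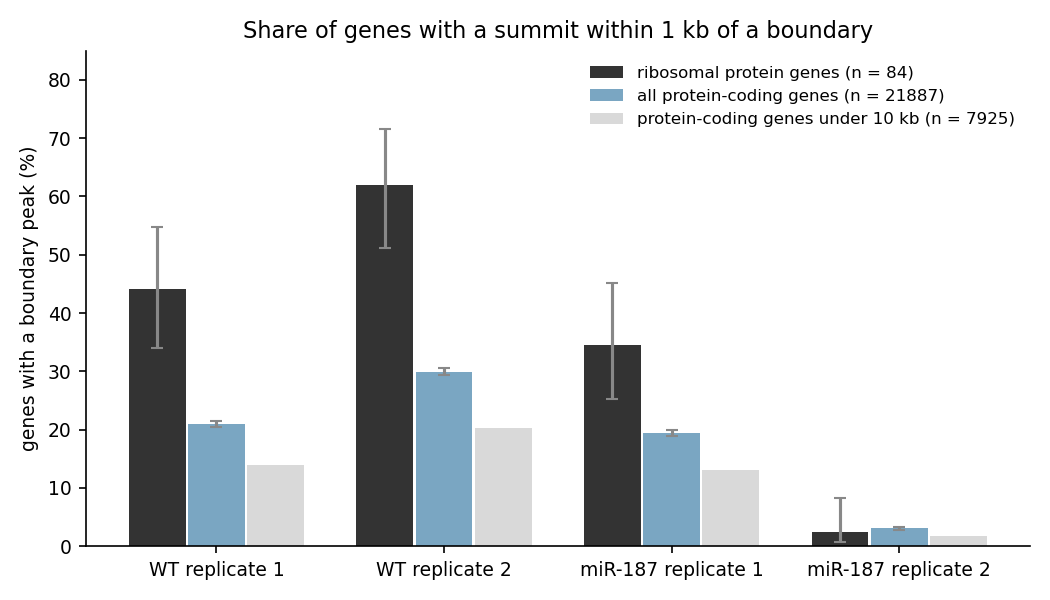
Share of genes with a peak summit within 1 kb of a gene boundary (%, vertical axis) in each library, for the 84 ribosomal protein genes, all 21887 protein-coding genes and the 7925 protein-coding genes under 10 kb. Bars with lines carry 95% Wilson intervals. The ribosomal protein genes stand above both backgrounds in all libraries but miR-187 replicate 2, where they stand at 2.38%.

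Both WT libraries had more ribosomal protein genes with a peak than both miR-187 libraries, as had the genome at large. The WT mean was 44.5 ± 10.6 genes and the miR-187 mean 15.5 ± 19.1 genes (SD, n = 2 each), a difference of -29 genes. The WT counts of 37 and 52 and the miR-187 counts of 29 and 2 did not overlap. In such bulk libraries, a shift in the mix of cells and a change of accessibility within cells cannot be told apart. For all protein-coding genes the WT share was 25.5 ± 6.30% and the miR-187 share 11.3 ± 11.6% (SD, n = 2 each), a difference of -14.2 percentage points (exact permutation test, 2-sided, 6 assignments of the libraries, p = 0.333, the smallest p that 2 against 2 libraries allow). The difference in ribosomal protein genes was -15.5 when miR-187 replicate 2 was left out and -42.5 when miR-187 replicate 1 was. Leaving out WT replicate 1 gave -36.5 and WT replicate 2 gave -21.5. When the same number of strongest peaks, 1483, was taken from each list, 10 and 8 genes had a peak in WT and 8 and 2 in miR-187, a difference of -4. All genes then had shares of 4.67% and 5.54% in WT and 4.77% and 3.07% in miR-187. With equal list length, miR-187 replicate 1 had as many as WT replicate 2.

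Where they had a peak, ribosomal protein genes had one of ordinary strength. Each gene's strongest boundary peak was ranked by −log10 q among all protein-coding genes with a boundary peak in the same list, from 0 (weakest) to 100 (strongest). The median percentile of the ribosomal protein genes was 49.7 and 46.7 in WT and 53.7 and 72.3 in miR-187, the last from 2 genes. The median fold enrichment over background was 5.39 and 5.32 in WT and 5.91 and 6.30 in miR-187, against 5.49, 5.26, 5.68 and 5.47 for all genes with a peak. Their folds ran from 3.62 to 7.39 in WT replicate 1, from 3.32 to 8.89 in WT replicate 2, from 4.04 to 9.78 in miR-187 replicate 1, and were 5.56 and 7.05 in miR-187 replicate 2. Above the 90th percentile, which holds 10% of all genes with a peak by construction, were 1, 5, 3 and 1 ribosomal protein genes of 37, 52, 29 and 2, and at or below the 25th were 9, 18, 5 and 0. Median peak widths were 296 and 345.5 bp in WT and 372 and 342.5 bp in miR-187, against 309, 390, 321 and 230 bp for all genes with a peak.

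The peaks rested on few reads. The inferred number of fragments at the summit lay between 4 and 15 for WT replicate 1, 7 and 26 for WT replicate 2, 7 and 20 in miR-187 replicate 1, and was 7 and 10 in miR-187 replicate 2, against a lowest called pile-up of 4, 7, 5 and 4 in the respective lists. The medians were 10 and 15.5 fragments in WT and 11 and 8.5 in miR-187. A gene that is missing from a list may still be open below the limit of calling.

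Across the lists, 65 of the 84 genes (77.4%) had a peak at least once, against 38.1% of all protein-coding genes. A single list held 27 genes (32.1%, against 14.5% of all genes), 22 genes were in 2 lists (26.2% against 13.1%), 15 in 3 (17.9% against 9.22%) and 1 in 4, and 19 were in none (22.6% against 61.9%). Of the 27 genes in a single list, WT replicate 2 held 18 (21.4% of the 84, against 8.07% of all genes) and WT replicate 1 held 7 (8.33% against 3.55%). The 26 genes found in both WT lists were 70.3% of those in WT replicate 1 and 50.0% of those in WT replicate 2, against 75.2% and 52.8% for all genes. Repeated presence was thus about as frequent for a ribosomal protein gene as for any gene with a peak. For these 26 genes the strongest summits of the WT lists were a median of 135 bp apart, and the peaks overlapped for 23. The exceptions were Rpl31, Rpl36 and Rps19. Their percentile ranks differed between the WT lists by a median of 29.0, close to the 24.6 of all genes in both WT lists.

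**Figure D2:**
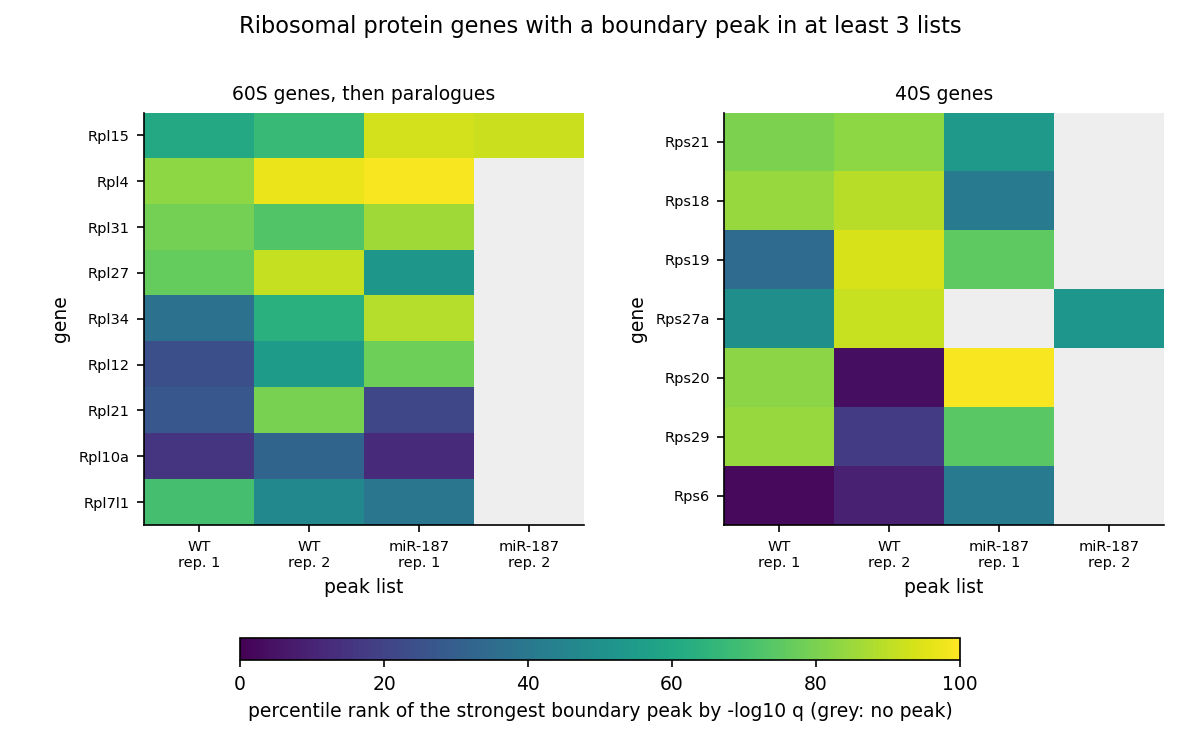
Percentile rank by −log10 q of the strongest boundary peak (colour) in each peak list (columns) for the 16 ribosomal protein genes (rows) with a peak in at least 3 lists. Grey marks no peak. Rpl15 is the only gene coloured in all 4 columns, and the column of miR-187 replicate 2 holds Rpl15 and Rps27a.

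Rpl15, a 60S protein needed for processing of the large ribosomal RNA, was the only ribosomal protein gene with a peak in all 4 lists. Its folds were 5.79 and 6.16 for WT and 8.15 and 7.05 for miR-187, at percentiles 60.5, 67.8, 93.2 and 92.0. Each fold is relative to the background of its own library, so folds are given side by side here and below and are not compared between the groups. In all protein-coding genes the share in all 4 lists was 1.29%, near the 1.19% that 1 of 84 genes makes. The summits lay at -101 and -247 bp from the annotated start in WT and at -417 and -240 bp in miR-187 (negative is upstream), on the side of the neighbouring gene Nkiras1, whose boundary lay within 1 kb of each of them, so the peak cannot be assigned to Rpl15 alone.

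Rps27a, which encodes a 40S protein made as a fusion with ubiquitin, was the other ribosomal protein gene in the list of miR-187 replicate 2. Its folds were 5.39 and 7.59 in WT and 5.56 in miR-187 replicate 2, and it had no peak in miR-187 replicate 1, the deeper of the miR-187 libraries. The boundary of Clhc1 was within 1 kb of its summits in all 3 lists. Both ribosomal protein genes of the shortest list thus shared their peak with another gene.

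Among the other 60S genes, Rpl4, Rpl31, Rpl27 and Rpl34 ranked highest over the lists, and all were present in every list but that of miR-187 replicate 2. Rpl4 lines the exit tunnel for the nascent peptide. Its strongest peaks, with folds of 6.96 and 8.89 in WT and 9.38 in miR-187 replicate 1, were at percentiles 82.9, 97.1 and 99.2. However, these summits lay 5907, 6134 and 5907 bp downstream of the Rpl4 start, beyond the end of the gene, and within 1 kb of a boundary of Snapc5. Weaker peaks were present near the Rpl4 start itself, with folds of 5.13 in WT replicate 1 (at -763 bp), 4.70 and 4.62 in WT replicate 2 (at -600 and 257 bp) and 7.53 in miR-187 replicate 1 (at 100 bp).

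Rpl31, a 60S protein near the tunnel exit, had folds of 6.37 and 6.09 in WT and 7.29 in miR-187 replicate 1. From the start, its summit was at 183 bp for WT replicate 1, at -114 bp for WT replicate 2 and at 166 bp for miR-187 replicate 1. The peaks of the WT lists did not overlap, and their summits lay on either side of the start shown above.
Rpl27, also of the 60S subunit, had folds of 6.55 and 7.28 in WT and 5.95 in miR-187 replicate 1, with summits within 146 bp of the start. Rpl34 had 5.23 and 5.62 in WT and 7.43 in miR-187 replicate 1, with summits within 21 bp of it. Both genes thus had a peak over the printed start in 3 libraries.

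In the 40S group, Rps21, Rps18 and Rps19 had the highest mean percentiles (absence as 0) at 54.2, 53.8 and 51.1, followed by Rps27a at 48.5 and Rps20 at 46.3. Rps21 had folds of 6.25 and 5.76 in WT and 5.66 in miR-187 replicate 1. Rps18, a protein of the 40S head, had 6.60 and 6.05 in WT and 5.22 in miR-187 replicate 1, with summits at -48, -47 and -137 bp from its start and a boundary of Vps52 within 1 kb. Neither gene had a peak in miR-187 replicate 2. Rps19, the gene most often mutated in Diamond-Blackfan anaemia, had 5.17 and 7.74 in WT and 6.50 in miR-187 replicate 1. The summit was at -478 bp from its start in WT replicate 2 and miR-187 replicate 1 but at 5730 bp, at the other end of the gene, in WT replicate 1. Rps20 had 6.82 and 4.10 in WT and 9.78 in miR-187 replicate 1, which was the highest fold of any ribosomal protein gene in that list. Its WT values span most of the range of their lists, at percentiles 82.5 and 3.6.

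Of the 26 genes shared by the WT lists, 15 had a peak in miR-187 replicate 1 (57.7%, against 60.7% of all genes that the WT lists shared) and 2 in miR-187 replicate 2 (7.69%, against 11%). Neither miR-187 list held 10 of them, or 38.5%, against 36.5% of all genes. Loss from the miR-187 lists was thus near the rate of the genome. Leaving out WT replicate 1 gave 28 of 52 genes and leaving out WT replicate 2 gave 17 of 37, as the starting sets were larger. No share of all genes was worked out beside these counts, so they are not read as a result about ribosomal protein genes. Without miR-187 replicate 1 it was 24 of the 26 and without miR-187 replicate 2 it was 11 of the 26. These are the complements of the shares set against all genes above. Among the 10 genes were Rpl37, Rpl3, Rpl13a, Rps7, Rpl14, Rpl22l1, Rpl7, Rpl27a and Rpl36. Of the 10, 7 lay in the lowest quartile of genes by mean WT percentile. That quartile held 9 ribosomal protein genes in all, and 54.2% of all its genes were in neither miR-187 list, against 19.9% in the highest quartile.

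Rpl37 and Rpl3 were the 2 lost genes of the highest quartile. Rpl3, whose product reaches towards the peptidyl transferase centre, had WT folds of 7.39 and 5.47, at percentiles 90.05 and 69.88. Rpl37 had 6.94 and 6.55, at percentiles 89.8 and 78.0, with a boundary of Card6 within 1 kb of its summits. At the weak end, Rpl22l1, a paralogue of Rpl22, had folds of 3.85 and 6.05, the former from 5 inferred fragments. Rpl13a, at 6.61 and 3.32, and Rps7, at 6.41 and 3.93, were strong in WT replicate 1 and near the limit of calling in WT replicate 2, whereas Rpl14, at 4.43 and 6.25, was the reverse. Rpl27a and Rpl7 had 5.26 and 3.85, and 5.45 and 3.54. For Rpl36 (4.78 and 3.61) the strongest WT summits lay at different ends of the gene, one near Lonp1 and the other near Micos13, but WT replicate 1 had a weaker peak (fold 4.42) at the latter end too.

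The reverse pattern, a peak in a miR-187 list and none in WT, was seen for Rpl22 and Rpl8, or 2.38% of the ribosomal protein genes against 2.95% of all genes. Both were in miR-187 replicate 1, with folds of 5.13 and 4.91 and 7 and 10 inferred fragments. The Rpl22 summit lay 7410 bp downstream of the annotated start. A further 4 genes, Rpl26, Rpl11, Rps25 and Rps23, were in WT replicate 1 and miR-187 replicate 1 alone (4.76%, against 1.48% of all genes), and 8 (Rpl13, Rpl7a, Rpl23 and Rps14 among them) in WT replicate 2 and miR-187 replicate 1 alone (9.52% against 5.24%). Of these Rpl26 had the strongest peaks, with folds of 7 and 7.69 and summits at -61 and -115 bp from the start, although it had none in the deepest library. Rpl26 was named after its values were seen.

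The P stalk recruits elongation factors to the large subunit. Rplp0 had a peak in WT replicate 2 (fold 5.56), Rplp1 in WT replicate 1 (6.32) and Rplp2 in WT replicate 2 (6.18, with a boundary of Pidd1 within 1 kb). Each stalk gene thus had a peak in a single list. Rpsa, the 40S protein also known as a laminin receptor, had a peak in no list.

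The paralogues had peaks less often than the main genes. Of the 8 paralogues, 2 and 4 had a peak in WT and 1 and 0 in miR-187, compared with 35 and 48, and 28 and 2, of the 73 main genes, and none of the 3 retrogene-type genes had one. As shares, the paralogues stood at 25% and 50% in WT and 12.5% and 0% in miR-187. All protein-coding genes had 21.0%, 29.9%, 19.4% and 3.07%, so the paralogues lay above them in both WT libraries and below them in both miR-187 libraries. These differences were not tested. Rpl7l1 was in both WT lists (6.25 and 5.36) and miR-187 replicate 1 (5.56), and Rpl36al (4.58) in WT replicate 2 alone. Rpl3l, a paralogue of Rpl3 that is restricted to striated muscle, had a peak in WT replicate 2 alone, with a fold of 5.68. This summit lay 3915 bp downstream of the annotated Rpl3l start and within 1 kb of a boundary of Msrb1. It was the only boundary peak of Rpl3l in any list. No list held a peak at Rps27l, Rpl32l, Rpl10l or Rpl39l. The remaining genes without any peak were Rpl35, Rpl9, Rpl29, Rpsa, Rpl28, Rps3, Rpl32, Rps26, Rpl19, Rpl38, Rps2 and Rpl17, beside the 3 retrogene-type genes.

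Between the subunits the shares were similar. In WT, 51.2% and 62.8% of the 60S genes and 43.3% and 70.0% of the 40S genes had a peak, and in miR-187 34.9% and 2.33% of the 60S genes and 43.3% and 3.33% of the 40S genes. The order of the subunits differed between the libraries. WT replicate 1 held 22 genes of the 60S and 13 of the 40S subunit, and miR-187 replicate 1 held 15 and 13. This contrast was not tested.

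Genes of related machinery also had peaks more often than protein-coding genes at large, in every library. In miR-187 replicate 2 this rested on 1 to 6 genes per list, with ribosome biogenesis at 4% against 3.07% of all genes. Mitochondrial ribosomal proteins (78 genes), which serve the ribosome of the organelle and are encoded in the nucleus, had a peak at 41.0% and 64.1% in WT and 44.9% and 7.69% in miR-187. Of 25 ribosome biogenesis genes, such as Fbl and Nop56, 13 and 17 had a peak in WT and 11 and 1 in miR-187. Of 21 other translation genes, such as Eef1a1 and Rack1, 12 and 13 had one in WT and 11 and 3 in miR-187. The proteasome, a housekeeping complex outside translation, had 18 and 24 of 40 genes in WT and 18 and 3 in miR-187. Its genes were matched by symbol and include Psmc3ip, which had a peak but is not a proteasome subunit. The raised share over all protein-coding genes was therefore not particular to cytosolic ribosomal proteins. In both miR-187 libraries all 4 of these lists had a higher share than the cytosolic ribosomal protein genes, which stood at 34.5% and 2.38%. In WT the order was mixed, and these differences were not tested.

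Ribosomal protein genes have left many processed pseudogenes, which carry the coding sequence but not the promoter. Of 272 ribosomal protein pseudogenes matched by symbol, 0 and 1 had a boundary peak in WT and 0 and 0 in miR-187. Of all 9319 autosomal pseudogenes, 0.805% and 1.04% had one in WT and 0.558% and 0.193% in miR-187. How reads that map equally well to a gene and its copies were handled is not given in the sources used here.

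**Figure D3:**
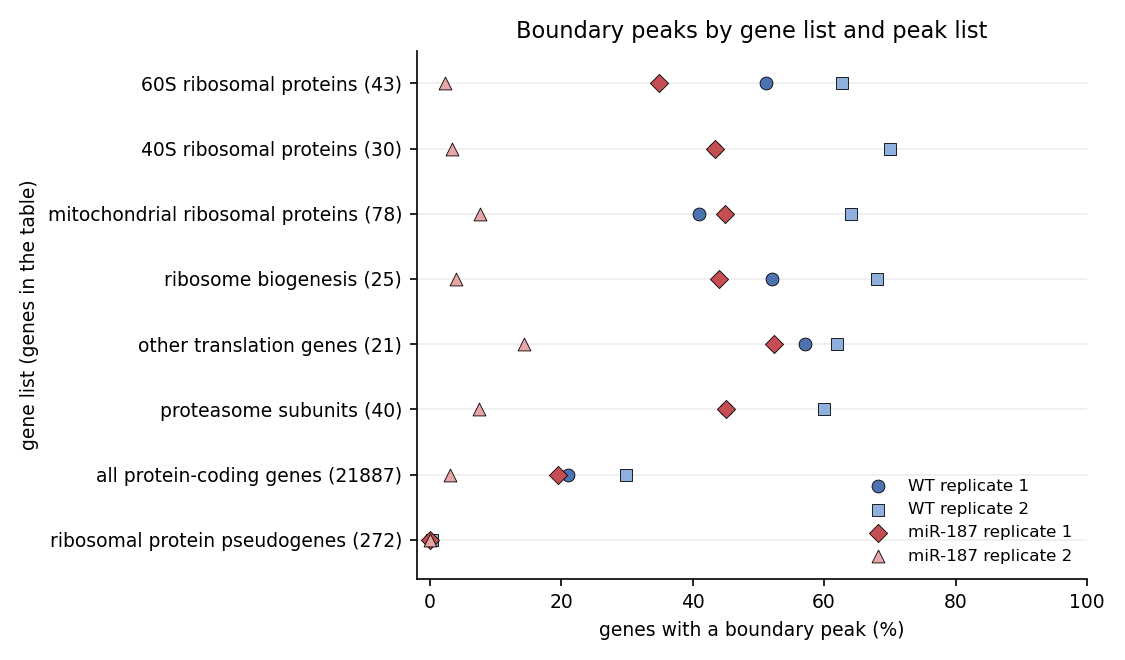
Share of genes with a boundary peak (%, horizontal axis) in each gene list (rows, with the number of genes), with 1 symbol per library. The cytosolic ribosomal protein genes of both subunits, mitochondrial ribosomal proteins, ribosome biogenesis, other translation genes and proteasome subunits stand above all protein-coding genes in both WT libraries and miR-187 replicate 1, and the pseudogenes at or near 0. For 40S genes and proteasome subunits the symbols of WT replicate 1 and miR-187 replicate 1 coincide, and the latter is drawn on top. The proteasome genes were matched by gene symbol and include Psmc3ip, which is not a subunit.

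The peaks sat mostly at the transcription start, as did those of all genes. For the 64 genes with an annotated start in the promoter table, the median distance of the strongest summit from the start was -9 bp in WT replicate 1 (27 genes), -12.5 bp in WT replicate 2 (38 genes) and -35 bp in miR-187 replicate 1 (22 genes), where negative is upstream. All protein-coding genes had -22, -34 and -39.5 bp. Within 1 kb of the start lay 23 of 27, 35 of 38 and 20 of 22 of the ribosomal protein gene summits, or 85.2%, 92.1% and 90.9%, against 90.8%, 91.7% and 92.0% for all genes. The exceptions were Rps9, Rps19, Rpl18 and Rpl4 in WT replicate 1, Rpl4, Rpl41 and Rpl3l in WT replicate 2, and Rpl22 and Rpl4 in miR-187 replicate 1. Within 100 bp of the start lay 44.4%, 50.0% and 22.7% of the summits of ribosomal protein genes, against 37.1%, 41.9% and 40.8% for all genes. In miR-187 replicate 1 this corresponds to 5 of 22 summits, and the difference was not tested.

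**Figure D4:**
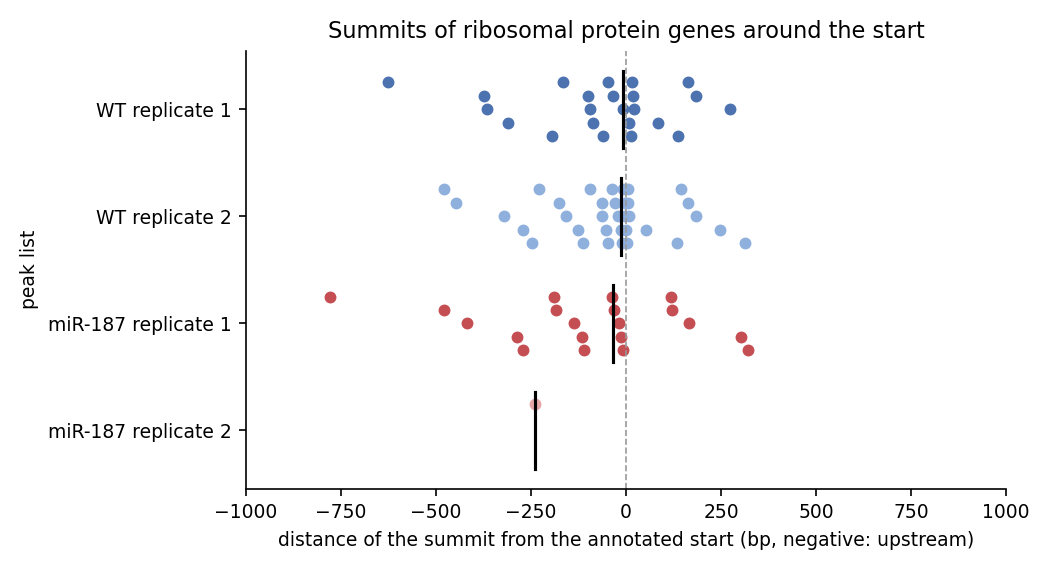
Distance of the strongest boundary summit from the annotated start (bp, horizontal axis, negative is upstream) for ribosomal protein genes with an annotated start, by library. Each point is 1 gene, vertical spread within a row serves legibility, and black lines are medians over all summits including those beyond 1 kb, which are not drawn. The medians lie at -9 and -12.5 bp for WT and at -35 bp for miR-187 replicate 1, and the single gene of miR-187 replicate 2 is at -240 bp.

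A neighbouring protein-coding gene had a boundary within 1 kb of the strongest summit for 11 and 13 of the ribosomal protein genes with a peak in WT and 6 and 2 in miR-187. These were 29.7% and 25% in WT and 20.7% and 100% in miR-187, against 30.4%, 29.4%, 29.6% and 30.7% of all genes with a peak. Without shared summits, 26 and 39 ribosomal protein genes had a peak in WT and 23 and 0 in miR-187. These were 31.0%, 46.4%, 27.4% and 0%, against 14.6%, 21.1%, 13.7% and 2.13% of all genes counted in the same way.

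Promoter letters were compared over 300 bases, from 250 before to 50 after the start, in the 64 ribosomal protein genes and 17492 protein-coding genes with an entry. A match is a run of letters and not a bound site. The pyrimidine tract (CTTTC or CTTTT or CTTCC on the gene strand within 10 bases of the start) was present in 34.4% of the ribosomal protein genes against 8.42% of all genes. CCGGAA was present in 48.4% against 19.1%, ATGGCGG in 15.6% against 5.44%, GGGCGG in 56.3% against 46.3% and TATAAA in 9.38% against 13.3%, each on either strand. Genes with a peak in any list were also compared, 48 ribosomal protein genes against 6784 genes with an entry. The tract (31.3% against 9.43%), CCGGAA (43.8% against 31.3%) and ATGGCGG (18.8% against 9.09%) were still more frequent in ribosomal protein genes. GGGCGG was less so (60.4% against 68.1%). The median GC content was 57.7% in ribosomal protein genes and 56.3% in all genes, and the median number of CpG dinucleotides was 21 against 13. Genes with a peak in any list had 61.7% and 22.

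Within the ribosomal protein genes the letters did not follow the peaks in one direction. CCGGAA was found in 43.8% of the 48 promoters with a peak in any list and 62.5% of the 16 without, and the tract in 31.3% and 43.8%. GGGCGG was found in 60.4% and 43.8%. With 16 promoters in the second group, 1 promoter changes a share by over 6 points, and none of these differences was tested.

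A snoRNA gene lay inside 28 of the 84 genes. Of these snoRNA hosts 10 and 22 had a peak in WT and 9 and 0 in miR-187, and of the other 56 genes 27 and 30 had one in WT and 20 and 2 in miR-187. As shares, hosts stood at 78.6% against 53.6% in WT replicate 2, but at 35.7% against 48.2% in WT replicate 1 and 32.1% against 35.7% in miR-187 replicate 1. The gap in WT replicate 2 was thus not seen in the other libraries, and this contrast was not tested. For the 372 protein-coding hosts at large the shares were 31.7% and 48.7% in WT and 30.6% and 4.30% in miR-187.

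Read density and counts ran in the same order in WT, whereas miR-187 replicate 1 was denser than WT replicate 1 (2016 against 1751 reads per Mb) and had fewer genes (29 against 37). WT replicate 2 was thinned in calculation to the read density of WT replicate 1 (33.5% of its reads kept). Here and below, found counts genes of the deeper list that were also in the shallower list. Of the 52 ribosomal protein genes of WT replicate 2, 26.1 were expected to remain and 26 were found. These were 50.3% and 50.0%, against 52.7% and 52.8% for all genes. WT replicate 1 held 37 ribosomal protein genes in all, and those absent from WT replicate 2 do not enter this comparison. Against miR-187 replicate 1 (38.6% kept), 28.1 were expected and 23 found, or 54.1% and 44.2%, against 56.7% and 50.9% for all genes. For miR-187 replicate 2, 10.4 were expected from WT replicate 2, 23.2 from WT replicate 1 and 19.1 from miR-187 replicate 1, whereas 2, 2 and 1 were found. Of all genes in WT replicate 1, 63.6% were expected in miR-187 replicate 2 and 9.11% found, and of those in miR-187 replicate 1, 59.99% and 9.40%. Of all genes in WT replicate 2 they were 22.1% and 8.51%. With every list thinned to the lowest density, the difference between the groups was -6.26 ribosomal protein genes, beside -2.62 percentage points for all genes. miR-187 replicate 1, thinned to WT replicate 1 (86.9% kept), was expected to keep 28.5 of 29 genes and shared 19 with it. These were 98.4% and 65.5%, against 97.1% and 57.3% for all genes. The share of reads in peaks was not analysed here.

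**Figure D5:**
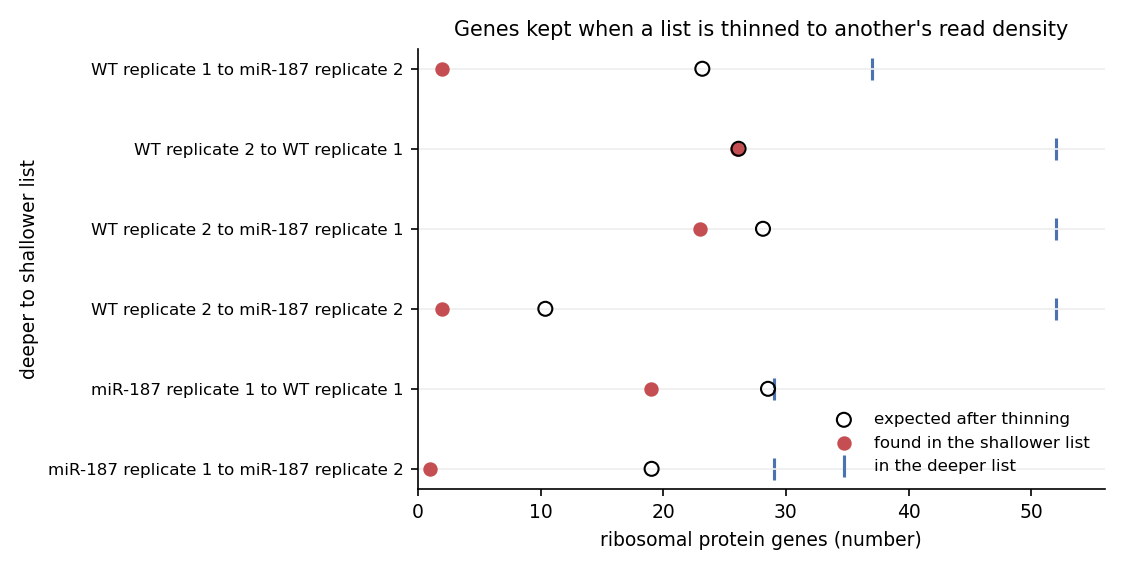
Number of ribosomal protein genes (horizontal axis) in the deeper list of each pair (blue line), expected after thinning to the read density of the shallower library (open circle) and found in the shallower list (red point). Found counts only genes of the deeper list. Expected and found lie close for WT replicate 2 and WT replicate 1 (26.1 and 26), although WT replicate 1 held 37 genes in all. Found is far below expected in all 3 pairs with miR-187 replicate 2.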

How the data were processed

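ATAC-seq libraries from P0 mouse hearts were sequenced as read pairs (2 WT, 2 miR-187, grouped by sample title). The submitters' processing notes name Bowtie2 2.2.6, SAMtools 1.10, MACS2 2.2.7.1 and build mm10. Settings and the handling of duplicates, mitochondrial reads and multiply mapped reads are not given in the sources used here. Each deposited peak list gave a score, the summit position and, at the summit, a fold enrichment with its −log10 p and its −log10 q. The largest q in a list was 0.0463 to 0.0498. Fold and −log10 q were ranked within a list only. Folds of a gene are given side by side across lists, each relative to the background of its own library, and are not compared between groups.

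Genes and promoters came from RefSeq tables of GRCm38.p6, the assembly of mm10. Only chromosomes 1 to 19, X and Y entered the counts, and peaks numbering 6, 20, 6 and 0 on other scaffolds were left out. A gene had a boundary peak if a summit lay within 1 kb of either end. Promoter entries existed for 64 of the 84 genes. Depth was inferred by solving each peak for a pile-up and a background, with fold as (pile-up + 1)/(background + 1) and p as the upper Poisson tail. This fitted 100% of peaks within 0.0005 in −log10 p and was tested on simulated data. The lowest background over an assumed 200 bp gave read density. Thinning kept reads at random in proportion to the densities and summed the chances that a peak reached the weakest p of the other list.

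The members and gene lists were chosen with earlier results of these data known. Named are genes with a peak in all 4 lists, the 10 with the highest mean percentile (absence as 0), those in both WT and neither miR-187 list and the reverse, those in no list, paralogues, the P stalk and Rpsa. Further genes are said to be chosen afterwards, and not all genes that the rule gives are reported here. Counts over the members have no p-value. The share of all genes was compared by a 2-sided exact permutation test. Alternatives were a −log10 q of at least 5, equal list length, windows of 250 bp and 3 kb, the annotated start alone, peak span, no paralogues, no shared summits, genes under 10 kb, ranking by fold, a block on replicate number, and each library left out in turn. Thinning was added after the data were seen. Python 3.11.15, numpy 2.4.6, pandas 2.3.3 and scipy 1.17.1 were used.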

Additional observations from a re-analysis of the deposited data

How the results depend on the processing

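Of 54 alternative values none reversed in direction, but a reversal was defined only for the group differences and the gap to all genes. The median percentile and the count of genes in both WT and neither miR-187 list could only be called same or moved. For the values without a test, 8 moved by more than the set limit. For the difference in ribosomal protein genes this limit was 1 pooled within-group SD of the library counts. For the gap to all genes and the median percentile it was 1 SD over the libraries, and for the count a factor of 1.5. The tested share of all genes kept its direction throughout, and 2 against 2 libraries cannot pass the threshold. The difference in ribosomal protein genes (-29) came to -4 with equal list length, -6.26 after thinning and -16 under a stricter q (−log10 q of 5 or more). It ranged from -42.5 to -15.5 when single libraries were left out. The count of genes in both WT lists and neither miR-187 list (10) came to 5 under the stricter q and to 2 with equal list length, and ranged from 11 to 28 without single libraries. Fewer peaks enter each of these settings. The main count lay near the rate of all genes (38.5% against 36.5%). No share of all genes was worked out under the stricter q, with equal list length or without a WT library. The mean of the median percentiles (55.6) came to 36.04 under the stricter q, where the value of miR-187 replicate 2 rests on 1 gene at percentile 4.46. The share of all genes differed by -1.19 points with equal list length, -2.62 after thinning and -8.01 under the stricter q (exact permutation p = 0.667 each), and by -6.02 without miR-187 replicate 2.

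The excess over all genes (17.4 points) was 3.82 points with equal list length and 23.4 against genes under 10 kb. With the replicate number as a block the differences were again -29 genes and -14.2 points (exact sign-flip p = 0.5, the smallest possible), and no other call changed. Same-numbered libraries share only a number, and their deviations correlated at -0.0273 over 8332 genes. Peaks rested on few reads in all lists, and a gene without a peak may be open below the limit of calling.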

Other observations

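The 4 X-linked ribosomal protein genes (Rpl10, Rpl39, Rps4x and Rpl36a), which were outside the 84, had peaks at 0 and 2 genes in WT and 1 and 0 in miR-187. The genes concerned were Rpl39 and Rpl36a, and Rpl10 and Rps4x had no peak in any list.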
